A study of Mus musculus with 16 samples.

Results

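The genes described here are 9 members of cytochrome P450 family 4, chosen by gene name as its fatty acid omega-hydroxylases: Cyp4a10, Cyp4a14, Cyp4a31, Cyp4a32, Cyp4a12a, Cyp4a12b, Cyp4f14, Cyp4f15 and Cyp4v3. They are 9 of the 25719 genes measured, with 6 members in the Cyp4a subfamily, 2 in the Cyp4f subfamily and 1 in the Cyp4v subfamily. All 9 passed the filter on low values in each comparison. Feeding the steatosis-steatohepatitis diet (SSD) in place of normal chow (NCD) divided the family in both genotypes. Cyp4a10, Cyp4a14, Cyp4a31 and Cyp4a32 rose, Cyp4a12a, Cyp4a12b and Cyp4f14 fell, and Cyp4f15 and Cyp4v3 did not pass the test.

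Enzymes of this family sit in the membrane of the endoplasmic reticulum and hydroxylate the terminal (omega) carbon of fatty acids, with electrons passed on by cytochrome P450 reductase (Por). The hydroxy acids are oxidized further by alcohol and aldehyde dehydrogenases to dicarboxylic acids, which peroxisomes shorten. Cyp4a10 and Cyp4a14 are classical targets of the fatty acid sensor PPAR-alpha (Ppara), whereas Cyp4a12a and Cyp4a12b are the forms that dominate in male mice. The Cyp4f enzymes also act on leukotrienes and vitamin E, and Cyp4v3 is the mouse counterpart of human CYP4V2.

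RNA of whole liver from 16 male mice was sequenced, with 1 library per mouse. WT mice were of the C57BL6J strain, and Klrk1-/- mice lack NKG2D, an activating receptor of lymphocytes that is coded by Klrk1, in every cell. There were 4 WT mice on NCD, 5 WT mice on SSD, 4 Klrk1-/- mice on NCD and 3 Klrk1-/- mice on SSD. The mice were 8 to 12 weeks old and were fed for 3 weeks, and SSD is enriched in animal fat, fructose and cholesterol. The comparisons ask how the diet changed these genes in each genotype and whether the loss of Klrk1 altered them. The labels do not state in words that each numbered sample is a separate animal, so the p-values measure the spread between these samples.

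Libraries held 19892025 to 28936707 reads on genes. Klrk1 had 20.1 to 71.1 normalized counts in WT mice and 0.966 to 8.71 in Klrk1-/- mice, without overlap. In all 25 pairs of mice of the same group, counts varied beyond sampling noise. SSD-fed WT replicate 1 stood apart from the other mice of its group, with a chi-square per gene of 73.2 to 101 against 14.2 to 65.9 for all other pairs, so fold changes, levels and ratios that rest on it are in many places also given without it. Summed levels of 10 hepatocyte markers (among them Alb, Apob and Ttr) were 2397664 to 2697824 normalized counts in NCD-fed WT mice and 1545575 to 1934546 in SSD-fed WT mice. They were 2291392 to 2988983 and 2041007 to 2203076 in Klrk1-/- mice, without overlap between the diets in either genotype. As a percent of all normalized counts of a mouse, the sums were 9.20 to 9.95 and 8.04 to 9.05 in WT mice, and 8.98 to 10.7 and 9.07 to 10.1 in Klrk1-/- mice, where the diets overlapped. In bulk liver, fewer hepatocytes and less RNA per hepatocyte cannot be told apart, and the part of either in the results on the members was not tested.

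Coding sequences show how far reads can tell the members apart. Each line gives 100 coding bases, the length of 1 read, around the codon of the heme-binding cysteine (TGC or TGT), read from the GENCODE M39 transcripts on GRCm39. Capitals mark bases that differ from Cyp4a10 in a gapless alignment.
Cyp4a10: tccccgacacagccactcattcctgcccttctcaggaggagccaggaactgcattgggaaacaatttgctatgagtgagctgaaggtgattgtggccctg
Cyp4a14: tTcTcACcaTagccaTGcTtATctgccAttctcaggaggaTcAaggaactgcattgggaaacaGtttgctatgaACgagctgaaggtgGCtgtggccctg
Cyp4a12a: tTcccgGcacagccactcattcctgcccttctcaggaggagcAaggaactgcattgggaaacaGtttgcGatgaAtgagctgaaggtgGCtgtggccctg
Cyp4f14: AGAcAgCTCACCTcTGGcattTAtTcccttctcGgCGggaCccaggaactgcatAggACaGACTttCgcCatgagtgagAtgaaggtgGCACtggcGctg
Cyp4f15: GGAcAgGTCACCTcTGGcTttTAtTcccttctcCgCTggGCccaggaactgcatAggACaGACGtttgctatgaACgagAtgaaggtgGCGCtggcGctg
Cyp4v3: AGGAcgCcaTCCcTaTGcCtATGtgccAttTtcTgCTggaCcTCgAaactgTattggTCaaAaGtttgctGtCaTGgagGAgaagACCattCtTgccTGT
In this window Cyp4a31 and Cyp4a32 had 0 differences from Cyp4a10, and Cyp4a12b was identical to Cyp4a12a, which differed from Cyp4a10 at 8 bases. Cyp4a14 differed at 18 bases, Cyp4f14 at 36, Cyp4f15 at 38 and Cyp4v3 at 43. Over the whole coding sequence, identity was 97.2% between Cyp4a10 and Cyp4a32, 96.6% between Cyp4a10 and Cyp4a31, and 98.5% between Cyp4a12a and Cyp4a12b. Identity was 76.1% between Cyp4a10 and Cyp4a14, 82.1% between Cyp4f14 and Cyp4f15, and 52.9% between Cyp4a10 and Cyp4v3. Of all stretches of 100 bases in the canonical transcript, 15.6% of Cyp4a10, 8.12% of Cyp4a31 and 20.1% of Cyp4a32 also occurred in another of these paralogs. The share was 35.9% for Cyp4a12a and 36.2% for Cyp4a12b, each with the other, and 0 for Cyp4a14, Cyp4f14 and Cyp4f15. The split of reads within Cyp4a10, Cyp4a31 and Cyp4a32, and between Cyp4a12a and Cyp4a12b, is therefore uncertain, whereas Cyp4a14 shares no such stretch. In Cyp4v3, 5.76% of stretches were shared with Gm45753, a gene that overlaps it.

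All Cyp4a members lie in a cluster on chromosome 4 of GRCm39 as deposited. In order they are Cyp4a12a (chr4:115156243-115190012, plus strand), Cyp4a12b (chr4:115268821-115296231, plus), Cyp4a14 (chr4:115343397-115353339, minus), Cyp4a10 (chr4:115375461-115390846, plus), Cyp4a31 (chr4:115420846-115436212, plus) and Cyp4a32 (chr4:115458166-115478799, plus). The members that fell on SSD, Cyp4a12a and Cyp4a12b, were neighbours at one end of the cluster, and the 4 that rose followed them. Cyp4a29 and Cyp4a30b, annotated in the same cluster, were at 0 reads in all 16 mice. Cyp4f15 (chr17:32904601-32922326, plus) and Cyp4f14 (chr17:33124044-33136316, minus) lie on chromosome 17, and Cyp4v3 (chr8:45757981-45786253, minus) lies on chromosome 8.

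**Figure D1:**
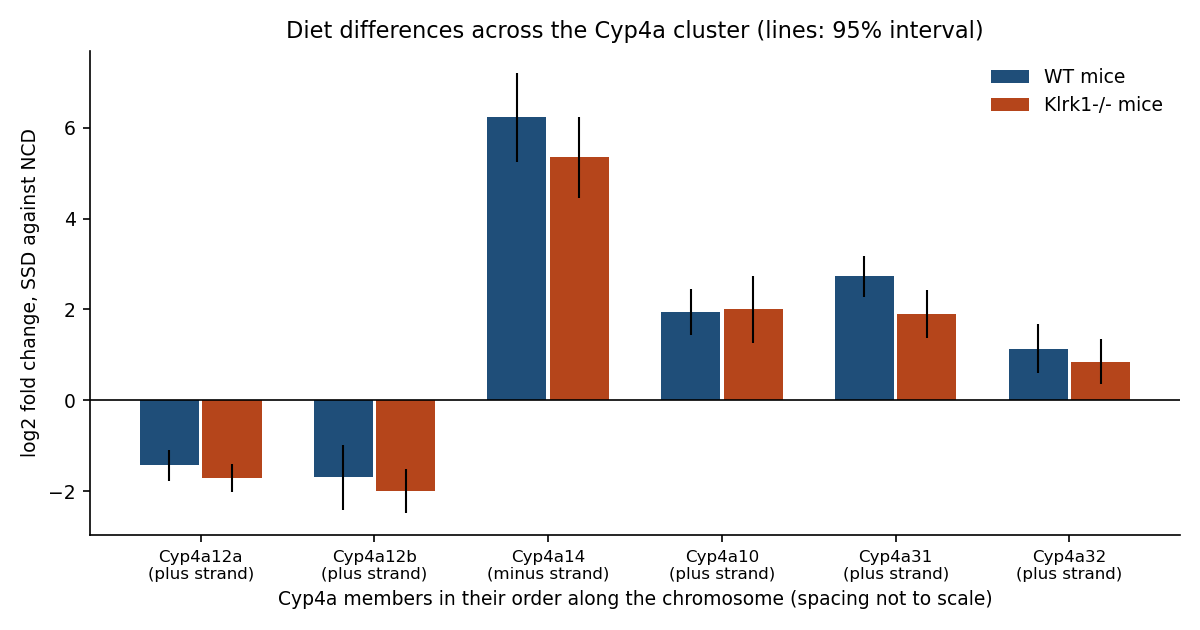
Log2 fold change of SSD against NCD (y axis) for the 6 Cyp4a members in their order along the cluster (x axis, spacing not to scale), with WT mice in blue, Klrk1-/- mice in red and lines for the 95% interval of limma's fit. Bars of Cyp4a12a and Cyp4a12b point down (-1.43 to -2.0) and those of the 4 other members point up (0.85 to 6.23).

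In WT mice, 7 of the 9 members were called different between the diets by limma (adjusted p under 0.05 by the Benjamini-Hochberg method over 13091 genes, and more than 1.5-fold). Of all genes tested, 19.3% were called. The 4 higher members stand beside 11.9% of genes called higher, and the 3 lower members beside 7.32% called lower. Values of 7 members did not overlap between the diets, against 29.0% of all genes. At a limit of 2-fold the 7 were still called, against 9.01% of all genes. The members' median was 0.14 on the log2 scale, beside -0.002 for all genes.

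Cyp4a14 changed the most of the 9. In WT mice on NCD it had 170.0, 326, 88.6 and 97.1 normalized counts. On SSD it had 3941, 15098, 11809.6, 13116 and 19169. The lowest SSD value, 3941 in replicate 1, was still above the highest NCD value of 326. The log2 fold change was 6.23 ± 0.45 (SE), a 75.2-fold rise (limma, adjusted p = 1.76e-06), and 6.61 without that mouse. The exact two-sided permutation test gave p = 0.0159, the smallest that 4 against 5 mice allow, and gave the same p for each of the 7 called members.

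Cyp4a10, the other classical PPAR-alpha target, started from a higher level. Its normalized counts on NCD were 1363, 1714, 937 and 1251. On SSD they were 3244, 5476, 4177, 4861 and 8178. All 5 SSD-fed mice lay above all 4 NCD-fed mice, and the log2 fold change was 1.94 ± 0.23 (SE; limma, adjusted p = 9.37e-05), or 3.84-fold. Its close paralog Cyp4a31 went from 53.1, 74.5, 73.0 and 76.1 to 518, 392, 298, 656 and 514 normalized counts. The groups of Cyp4a31 were well apart, at a log2 fold change of 2.73 ± 0.21 (SE; limma, adjusted p = 2.47e-06), 6.62-fold. Cyp4a32, the other close paralog, had 149.5, 247, 175 and 146 on NCD and 256, 273, 488, 591 and 420.5 on SSD. The diets of Cyp4a32 were barely apart, at 247 against 256, and its log2 fold change was 1.13 ± 0.25 (SE; limma, adjusted p = 0.00458). Without replicate 1 of the SSD-fed mice, the log2 fold changes were 2.09 for Cyp4a10, 2.68 for Cyp4a31 and 1.28 for Cyp4a32, all called.

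The male-type forms moved the other way. Cyp4a12a, the most abundant member on NCD, had 11088, 9789, 9019 and 11665 normalized counts on NCD. On SSD it had 3052, 3537, 4783, 5019 and 3206. Its highest SSD value, 5019, was well under its lowest NCD value, 9019, and the log2 fold change was -1.43 ± 0.16 (SE; limma, adjusted p = 4.56e-05), 2.69-fold lower. Cyp4a12b had 2459, 2675, 2316 and 2945 on NCD and 911, 319, 732, 1495 and 986 on SSD. It was tight on NCD (coefficient of variation 10.5%) and spread on SSD (47.9%), and its log2 fold change was -1.70 ± 0.33 (SE; limma, adjusted p = 0.00219), 3.26-fold lower. Without SSD-fed replicate 1 the values were -1.35 and -1.75, both called.

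The Cyp4f paralogs differed from each other. Cyp4f14, which acts on leukotriene B4, had 5754, 6607, 5447 and 4459 normalized counts on NCD and 2116, 2206, 3405, 2646 and 3119.7 on SSD. The groups did not overlap, and the log2 fold change was -1.06 ± 0.15 (SE; limma, adjusted p = 0.000375), 2.08-fold lower. Cyp4f15 had 2951, 3152, 3209 and 3231 on NCD and 2966, 3358, 3775, 3496 and 3703 on SSD. Here 4 of 5 SSD-fed mice lay above all NCD-fed mice, but the difference of 0.14 (95% interval -0.05 to 0.33) did not pass (limma, adjusted p = 0.239). Cyp4v3 had 12490.3, 10394, 8625 and 9287 on NCD and 5951, 7429.7, 9089, 7289.6 and 9286 on SSD. Its groups overlapped, and its difference of -0.39 (95% interval -0.71 to -0.07) missed the adjusted threshold (limma, adjusted p = 0.0568). Without SSD-fed replicate 1, the values were -0.97 for Cyp4f14, which was called, and 0.19 for Cyp4f15 and -0.30 for Cyp4v3, which were not.

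**Figure D2:**
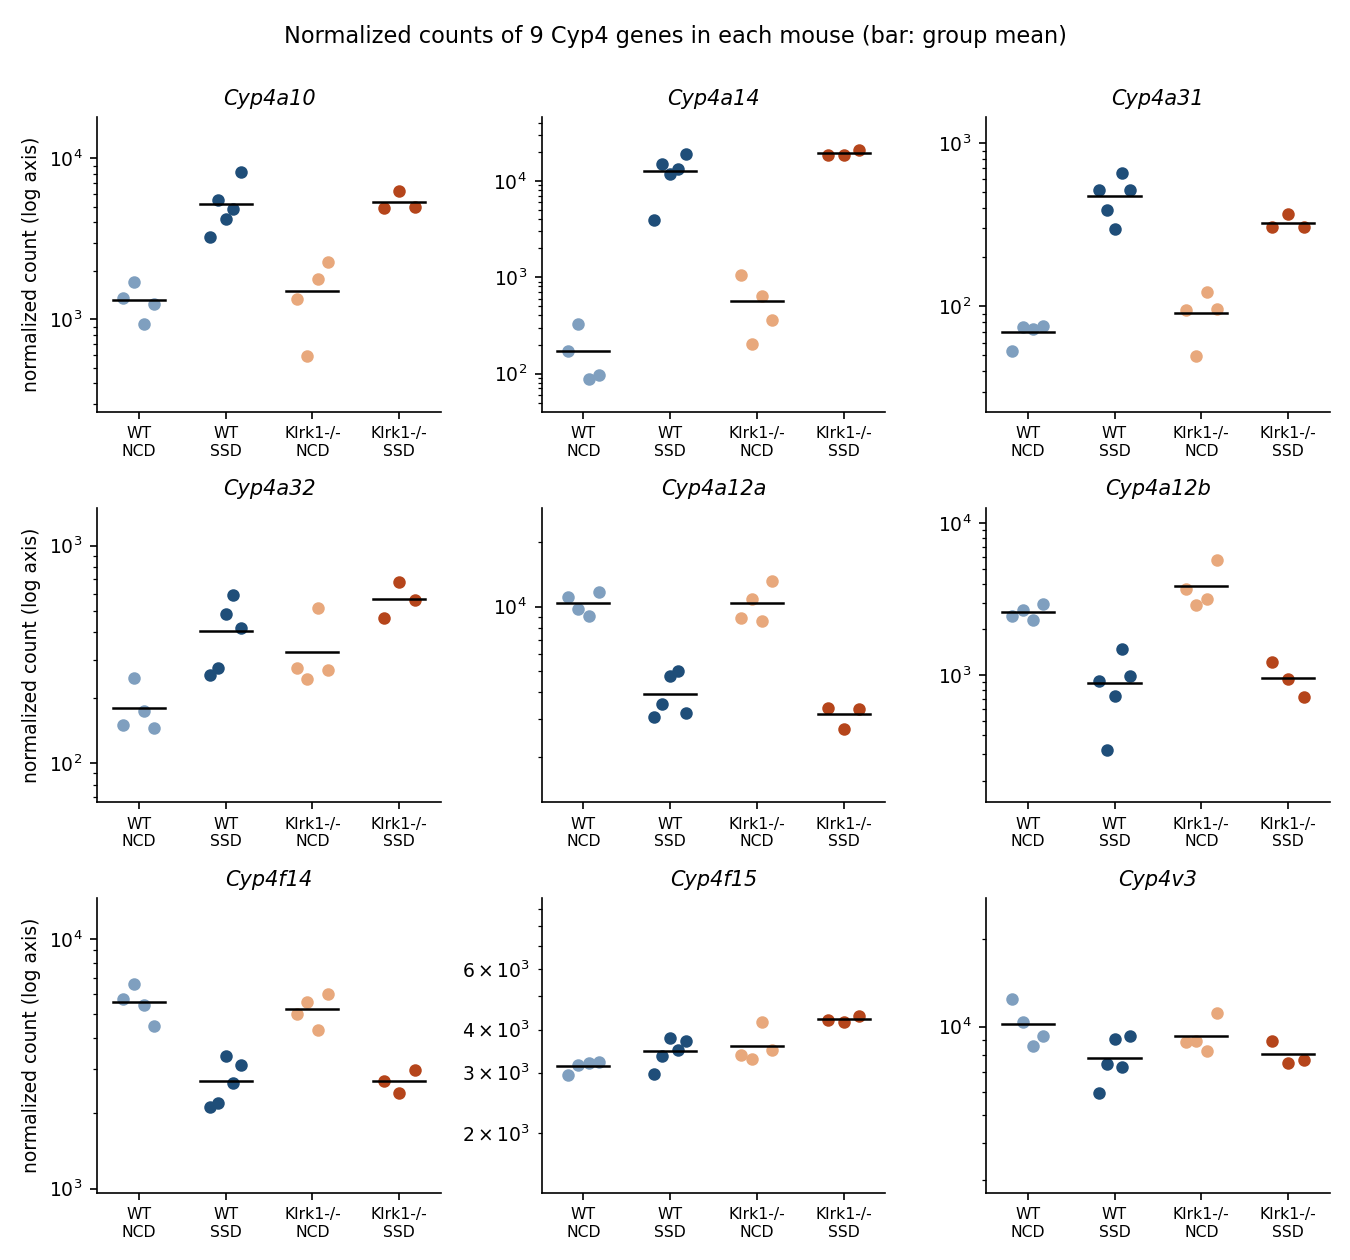
Normalized counts (y axes, log scale, each with its own range) of the 9 genes in each of the 16 mice by group (x axes), with 1 point per mouse and a bar at the group mean. Cyp4a14 goes from 88.6 to 326 in NCD-fed WT mice to 3941 to 19169 on SSD, whereas Cyp4f15 stays between 2951 and 4382 in all mice.

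The scale of these differences rests on the authors' scaling factors. Summed normalized counts per mouse had a median of 25995266 in NCD-fed and 20913201 in SSD-fed WT mice. Where samples were instead scaled to equal totals, the median gene shifted to 0.344 on the log2 scale in WT mice and to 0.254 in Klrk1-/- mice. Of the genes called, 89.6% were then higher on SSD in WT mice and 81.7% in Klrk1-/- mice, beside 62.0% and 49.8% with the authors' factors. The 7 members kept their direction and their call under that scaling in both genotypes. Cyp4f15 then stood at 0.48 in WT mice (limma, adjusted p = 0.000692, under the 1.5-fold limit). Cyp4v3 stood at -0.04 in WT and 0.05 in Klrk1-/- mice, so its direction depended on the scaling in Klrk1-/- mice only.

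The diet comparison in Klrk1-/- mice called the same 7 members by limma, 4 higher and 3 lower, where 13.1% of 12904 genes were called, 6.54% higher and 6.60% lower. At a limit of 2-fold, 5 members were called, against 5.46% of genes, and Cyp4a32 and Cyp4f14 were not. The mice of this comparison are all different from those of the WT comparison. Cyp4a14 had 1060.4, 202, 644 and 363 normalized counts on NCD and 18669, 18447 and 20777 on SSD. The 3 SSD-fed mice were close together (coefficient of variation 6.66%), and the log2 fold change was 5.35 ± 0.41 (SE; limma, adjusted p = 3.06e-06), 40.7-fold. Cyp4a10 had 1346, 589, 1779.6 and 2273 on NCD and 4903, 6304 and 4953 on SSD, a log2 fold change of 2.0 ± 0.34 (SE; limma, adjusted p = 0.00125). Replicate 2 was the lowest NCD-fed Klrk1-/- mouse for Cyp4a10, Cyp4a14, Cyp4a31 and Cyp4a32.

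Cyp4a31 had 95.4, 49.8, 122 and 95.9 normalized counts on NCD and 305, 366 and 307 on SSD, again without overlap (log2 fold change 1.90 ± 0.24 SE, limma, adjusted p = 0.000160). Cyp4a32 had 273, 245, 519 and 269 on NCD and 466, 679 and 561 on SSD. Its groups overlapped through NCD-fed replicate 3, at 519, and its log2 fold change of 0.85 ± 0.23 (SE; limma, adjusted p = 0.0151) was no longer called without SSD-fed replicate 2 (0.72, adjusted p = 0.0556) or replicate 3 (0.85, adjusted p = 0.0525).

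Cyp4a12a had 8880.5, 10916, 8622 and 13132 normalized counts on NCD and 3394, 2706 and 3352 on SSD in Klrk1-/- mice. Cyp4a12b had 3676, 2904, 3160.0 and 5768 on NCD and 1210.1, 937 and 720.0 on SSD. Cyp4f14 had 5002, 5587, 4329 and 6025 on NCD and 2706, 2404 and 2977 on SSD. All 3 genes were lower in every SSD-fed mouse than in any NCD-fed mouse. Their log2 fold changes were -1.71 ± 0.14, -2.0 ± 0.22 and -0.95 ± 0.12 (SE; limma, adjusted p = 6.04e-06, 5.13e-05 and 0.000117).

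Cyp4f15 had 3379, 3290.0, 4202 and 3496 on NCD and 4261, 4219 and 4382 on SSD, apart but close, and its log2 fold change of 0.26 missed the threshold (limma, adjusted p = 0.0516). Cyp4v3 had 8893, 8970.2, 8244 and 11149 on NCD and 8929, 7525 and 7666 on SSD, which overlapped (-0.21, limma, adjusted p = 0.177). Values of 7 members did not overlap between the diets here, against 37.6% of all genes. The exact permutation test cannot go below 0.0571 with 4 against 3 mice, and 7 members reached that value.

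**Figure D3:**
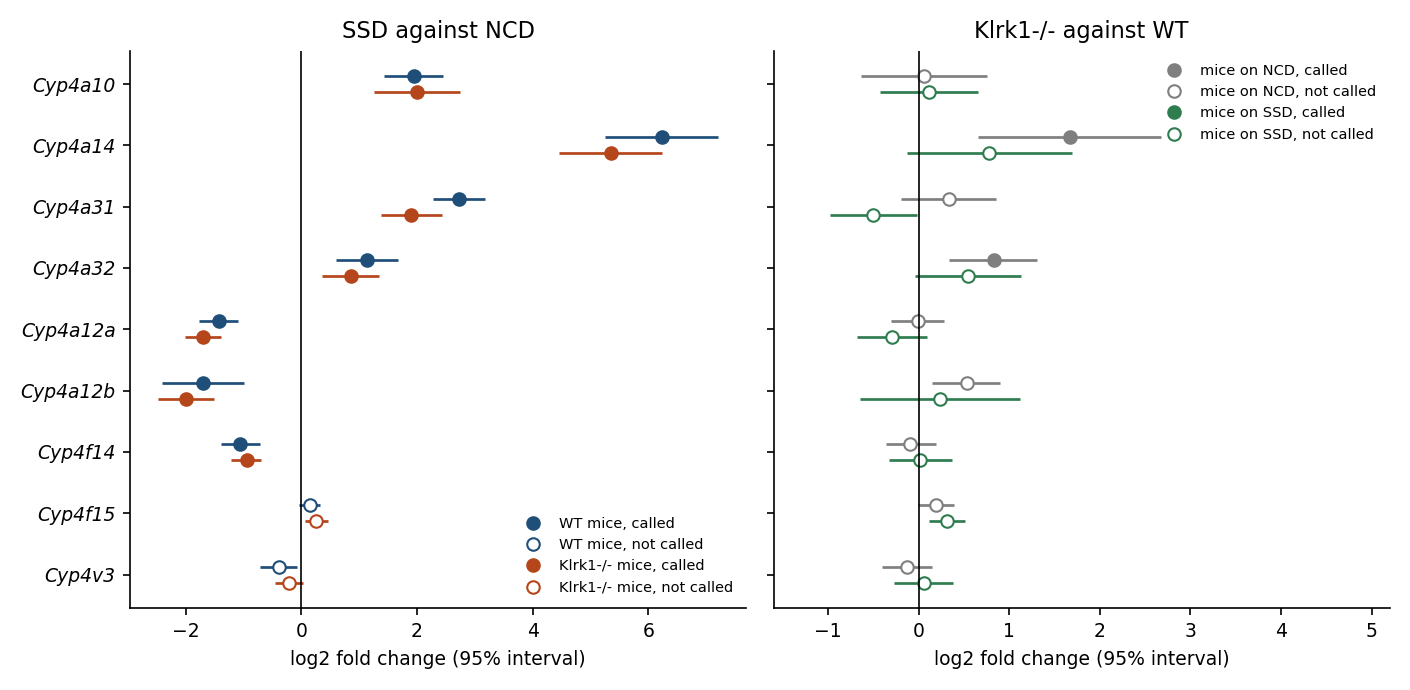
Log2 fold changes (x axes) of the 9 genes (y axis) with 95% intervals of limma's fit, for SSD against NCD in WT and Klrk1-/- mice (left) and for Klrk1-/- against WT on NCD and SSD (right), with filled points for called genes. On the left, Cyp4a14 lies farthest from 0 at 6.23 and 5.35, and on the right 2 points are filled, Cyp4a14 and Cyp4a32 on NCD.

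The diet difference itself was not shown to depend on genotype for any member. In the model of all 16 mice, 0 members were called by limma for the diet by genotype interaction, where 0.849% of 13068 genes were called, and edgeR and DESeq2 called 0 as well. At an unadjusted p under 0.05, for which the share of all genes was not measured, 1 member passed, Cyp4a31. Its interaction was -0.83 ± 0.35 (SE; limma, unadjusted p = 0.0299, adjusted p = 0.241), with a 6.62-fold rise in WT and a 3.73-fold rise in Klrk1-/- mice. The interaction of Cyp4a14 was -0.89 with a 95% interval of -2.39 to 0.61. That of Cyp4f14 was 0.10 (-0.36 to 0.56), and those of the others had adjusted p-values up to 0.963. Without SSD-fed WT replicate 1 the interaction was -1.26 for Cyp4a14, -0.78 for Cyp4a31 and 0.02 for Cyp4f14, and 0 members were called by limma. With each mouse left out in turn, 0.283% to 1.42% of genes were called.

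On SSD, 0 of the 9 members were called between Klrk1-/- and WT mice by limma, where 2.13% of 13116 genes were called (0.342% to 3.42% with each mouse left out in turn), and edgeR and DESeq2 called 0. At an unadjusted p under 0.05, for which the share of all genes was not measured, 2 members passed, Cyp4f15 and Cyp4a31. Cyp4f15 was the only member whose groups did not overlap, against 17.9% of all genes, with 4219 to 4382 normalized counts in Klrk1-/- and 2966 to 3775 in WT mice. Its log2 fold change was 0.31 (95% interval 0.11 to 0.51; limma, adjusted p = 0.0860), and 0.26 without WT replicate 1. Cyp4a31 went the other way at -0.50 (-0.98 to -0.02; limma, adjusted p = 0.206), and at -0.45 without that mouse. Cyp4f15, Cyp4a14 and Cyp4a12a were then the 3 members at an unadjusted p under 0.05, again with no share of all genes measured. Cyp4a14 was at 19298 ± 1286 (SD, n = 3) in Klrk1-/- and 12627 ± 5596 (SD, n = 5) in WT mice, which overlapped, and the log2 fold change was 0.78 (-0.13 to 1.69; limma, adjusted p = 0.286). Without WT replicate 1 that value was 0.41.

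On NCD, 2 members were called higher in Klrk1-/- mice by limma, Cyp4a14 and Cyp4a32, where 5.79% of 12845 genes were called and 2.92% were called higher. At a limit of 2-fold, Cyp4a14 was called, against 1.70% of genes, and Cyp4a32 was not. Cyp4a14 was at 567 ± 376 (SD, n = 4) normalized counts in Klrk1-/- and 170.5 ± 110.1 (SD, n = 4) in WT mice. The values overlapped, with 3 of 4 Klrk1-/- mice above all WT mice, and the log2 fold change was 1.67 ± 0.47 (SE; limma, adjusted p = 0.0352). Cyp4a32 was at 327 ± 129 against 179 ± 46.8 (SD, n = 4 each), also with 3 of 4 above all WT mice (0.83 ± 0.23 SE, limma, adjusted p = 0.0328). These calls were sensitive to single mice. Both were lost without Klrk1-/- replicate 3 (log2 fold changes 1.52 and 0.58, adjusted p = 0.0967 and 0.0700), without WT replicate 1 (1.74 and 0.75, adjusted p = 0.0695 and 0.0844), without WT replicate 3 (1.43 and 0.83, adjusted p = 0.0836 and 0.0627) and without WT replicate 5 (1.47 and 0.74, adjusted p = 0.0597 and 0.0542). Cyp4a14 was also lost without Klrk1-/- replicate 1 (1.28, adjusted p = 0.0763) and with the replicate number as a block (1.60, adjusted p = 0.0699). The exact permutation test gave p = 0.0571 for each gene.

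Of the other members on NCD, Cyp4a12b came closest, at 3877 ± 1301 in Klrk1-/- and 2599 ± 274 (SD, n = 4 each) in WT mice (0.53, 95% interval 0.15 to 0.90, limma, adjusted p = 0.0615). It was called without Klrk1-/- replicate 2 or without WT replicate 5, at log2 fold changes of 0.65 and 0.59. Cyp4a12a was at 10388 ± 2098 and 10390.2 ± 1205 (SD, n = 4 each), with a log2 fold change of -0.01 (-0.31 to 0.28). Cyp4f15 again did not overlap, against 19.3% of all genes, but its log2 fold change was 0.19 (limma, adjusted p = 0.181).

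Between genes, levels were compared per kb of exons, counted over the transcripts and within the gene bounds of the deposited table. On NCD in WT mice Cyp4a12a led with 4289.9 ± 497 normalized counts per kb (SD, n = 4), clear of Cyp4v3 at 2678 ± 445 and Cyp4f14 at 2284 ± 364, which overlapped each other. Cyp4f15 (1374 per kb), Cyp4a12b (1085) and Cyp4a10 (624) followed, each apart from its neighbour, and then Cyp4a32 (117), Cyp4a14 (65.6) and Cyp4a31 (27.6), of which Cyp4a32 and Cyp4a14 overlapped. On SSD in WT mice Cyp4a14 led with 4855 ± 2151 per kb (SD, n = 5), ahead of Cyp4a10 at 2459 ± 885, Cyp4v3 at 2051 ± 364 and Cyp4a12a at 1618 ± 379. In that order each gene overlapped the next, except that all values of Cyp4f14 (1107 per kb) lay above those of Cyp4a12b (371). Without SSD-fed replicate 1, Cyp4a14 was at 5689 ± 1235 per kb (SD, n = 4), and its lowest value of 4540.4 lay above the highest of Cyp4a10, 3877. All values of Cyp4f15 (1570.3 ± 83.7 per kb) then also lay above those of Cyp4f14 (1167 ± 217). In SSD-fed Klrk1-/- mice Cyp4a14 was at 7419 ± 494 per kb (SD, n = 3), above all values of Cyp4a10 (2554 ± 377). The order on NCD in Klrk1-/- mice was again led by Cyp4a12a, at 4289 ± 866 per kb (SD, n = 4). The place of Cyp4f14 depended on the length used. GENCODE M39 adds exons that end outside the deposited bounds, where reads were not counted, so its 6209 bases understate the level. Over them Cyp4f14 was at 897 ± 143 per kb in NCD-fed WT mice (SD, n = 4). Its mean was then below those of Cyp4f15 (1095) and Cyp4a12b (1083) rather than above them, though its values overlapped those of Cyp4a12b. The leading gene of each group stayed the same.

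**Figure D4:**
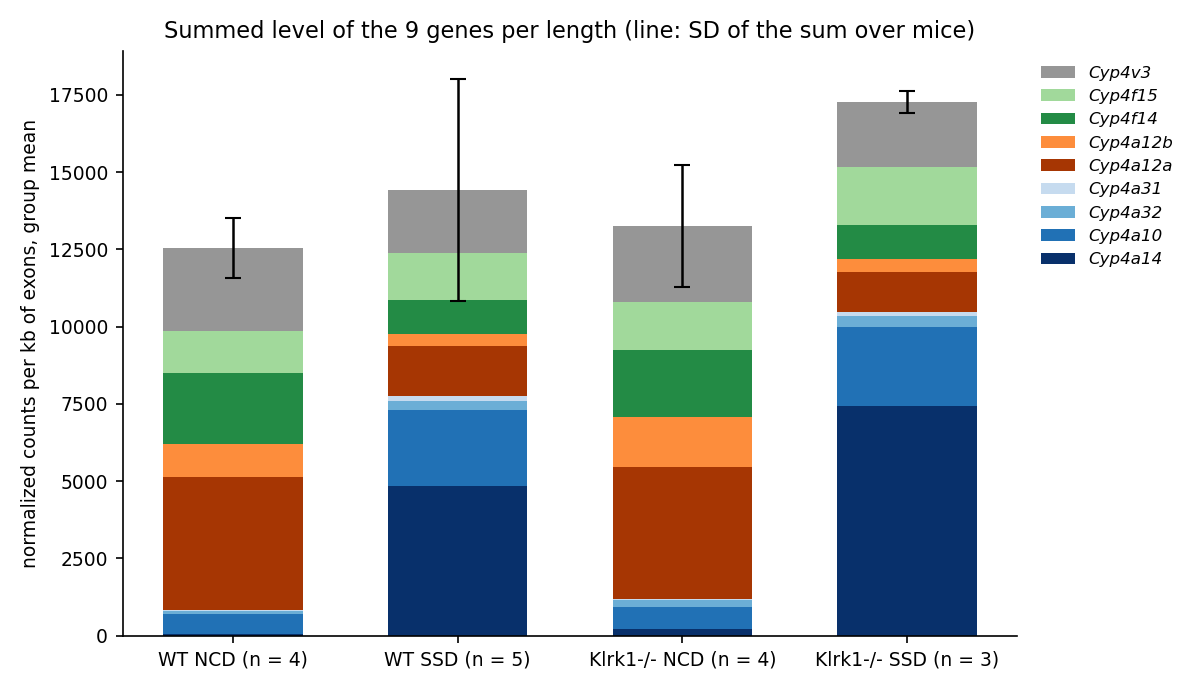
Group means of normalized counts per kb of exons (y axis), stacked over the 9 genes for each group (x axis), with a line for the SD of the sum over mice. Cyp4a12a (dark orange) makes up the largest band on NCD and Cyp4a14 (dark blue) on SSD, while the sums lie between 12546 and 17270.3.

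The summed level of the 9 members was 12546 ± 959 per kb in NCD-fed and 14431 ± 3591 in SSD-fed WT mice (SD, n = 4 and 5), which overlapped, and 13253 ± 1963 and 17270.3 ± 351 in Klrk1-/- mice (SD, n = 4 and 3), which did not overlap (highest 16193 on NCD, lowest 16990.0 on SSD). Without SSD-fed WT replicate 1, the WT sums did not overlap either, at 15839.6 ± 1993 on SSD (SD, n = 4), where Cyp4a14 held 35.7% ± 4.35 and Cyp4a12a with Cyp4a12b 13.3% ± 3.96. Cyp4a14 held 0.512% ± 0.309 of that sum on NCD and 32.0% ± 9.09 on SSD in WT mice (SD). It held 1.71% ± 1.23 and 42.9% ± 1.98 in Klrk1-/- mice. Cyp4a12a and Cyp4a12b together went from 42.9% ± 3.88 to 14.4% ± 4.17 in WT mice and from 44.3% ± 3.74 to 9.84% ± 1.15 in Klrk1-/- mice. Summed per kb, Cyp4a10, Cyp4a31 and Cyp4a32 were at 587 to 1003 on NCD and 1911 to 4356 on SSD in WT mice (2417 to 4356 without replicate 1), and at 458 to 1291 and 2750.2 to 3577 in Klrk1-/- mice.

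Ratios of 2 members within a mouse do not depend on the scaling factor, and 7 ratios were compared in 4 comparisons. The log2 ratio of Cyp4a14 to Cyp4a10, both PPAR-alpha targets, was -3.11 ± 0.56 on NCD and 1.18 ± 0.51 on SSD in WT mice (SD), a difference of 4.29. It was -1.5 ± 0.94 and 1.85 ± 0.27 in Klrk1-/- mice, a difference of 3.35. Without SSD-fed WT replicate 1, the WT ratio on SSD was 1.40 ± 0.12. The ratio of Cyp4a12a to Cyp4a14 turned from 6.12 ± 0.89 to -1.55 ± 0.84 in WT mice (-1.84 ± 0.61 without that mouse) and from 4.43 ± 1.24 to -2.62 ± 0.15 in Klrk1-/- mice.

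The 2 Cyp4f genes also parted within mice. The log2 ratio of Cyp4f15 to Cyp4f14 was -0.96, -1.07, -0.76 and -0.46 in NCD-fed WT mice and 0.49, 0.61, 0.15, 0.40 and 0.25 on SSD, below 0 in all of the former and above 0 in all of the latter. The difference was 1.19 in WT and 1.21 in Klrk1-/- mice. The ratio of Cyp4v3 to Cyp4f14 rose by 0.67 and 0.74. In WT mice, the ratio of Cyp4a12a to Cyp4f14, 2 genes that both fell, differed by -0.37 with overlapping groups (exact permutation p = 0.127). The other 6 ratios did not overlap between the diets in WT mice and reached the smallest exact permutation p of 0.0159, which was 0.0741 after adjustment over all 28 tests. The ratios reuse the same few genes and are not separate results. Of all single genes 29.0% did not overlap in this comparison, and the share among ratios of other genes was not measured. None of the 28 ratio tests passed an adjusted threshold of 0.05, which groups of this size could hardly reach. The smallest possible exact permutation p is 0.0159 for the diet in WT mice and 0.0571 in Klrk1-/- mice. Between genotypes on SSD, the ratios of Cyp4a14 to Cyp4f14 and to Cyp4a10 did not overlap (exact permutation p = 0.0357 for each, 0.0941 adjusted). The differences were 0.76 and 0.67, and without SSD-fed WT replicate 1 they were smaller, at 0.47 and 0.44.

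**Figure D5:**
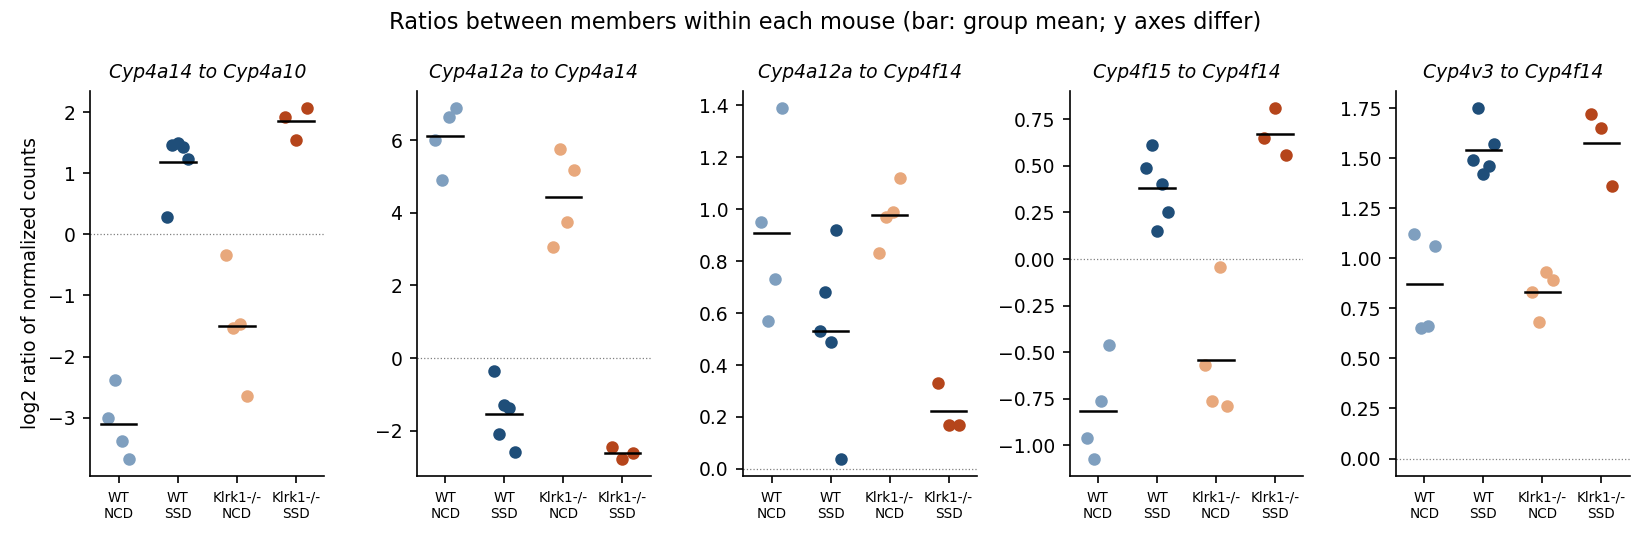
Log2 ratios of normalized counts of 2 members (y axes, each with its own range) in each of the 16 mice by group (x axes), with 1 point per mouse and a bar at the group mean. The ratio of Cyp4f15 to Cyp4f14 lies at -1.07 to -0.04 in NCD-fed mice and at 0.15 to 0.81 in SSD-fed mice, and that of Cyp4a12a to Cyp4f14 overlaps between the diets in WT mice.

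Within groups, some pairs of members deviated together from mouse to mouse, given here as a description over 16 mice. All values of a mouse come from the same library and share its depth. Pearson's r of deviations from the group means was 0.67 for Cyp4a10 and Cyp4a14, 0.74 for Cyp4a32 and Cyp4f15, and 0.72 for Cyp4f14 and Cyp4v3. It was -0.09 for Cyp4a14 and Cyp4a12a. Without SSD-fed WT replicate 1 these were 0.60, 0.66, 0.64 and -0.44 over 15 mice.

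Upstream sequence was searched for letters that PPAR-alpha and its partner RXR are known to bind, on both strands of the windows before the annotated start of 21757 genes. These letters are 2 copies of AGGNCA in the same orientation with any 1 base between them. This direct repeat occurred within 2000 bases of the start in 3.40% of genes and in 2 members, Cyp4a10 and Cyp4a31. Both matches read the same and lie on the strand opposite to the gene, 1437 and 1409 bases before the start. Each line gives 60 bases of the plus strand of GRCm39 with the match in capitals, at chr4:115374000-115374059 and chr4:115419385-115419444.
Cyp4a10: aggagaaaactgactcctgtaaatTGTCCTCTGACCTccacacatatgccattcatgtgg
Cyp4a31: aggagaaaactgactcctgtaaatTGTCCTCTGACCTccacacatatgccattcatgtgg
Within 250 bases of the start, the repeat occurred in 0.349% of genes and in 0 members, and its hexamer AGGTCA in 13.1% of genes and in Cyp4a14 alone, 87 bases before the start. A stricter repeat of AGGTCA, which the first one includes, occurred in 0 members within 2000 bases, against 0.280% of genes. The canonical transcript of Cyp4a32 begins at its start codon. The 150 bases before the starts of Cyp4a32, Cyp4a12b, Cyp4f14 and Cyp4v3 overlap exons of other transcripts of the same gene, and those of Cyp4a14 an exon of Gm52676, so the windows are not all alike in what they hold.

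Around the members, the partner enzymes and regulators were measured in lists. Por rose in both genotypes, from 3649 ± 438 to 7058 ± 746 normalized counts in WT mice (SD, n = 4 and 5; log2 fold change 0.95 ± 0.11 SE, limma, adjusted p = 5.39e-05). In Klrk1-/- mice it rose from 3264 ± 109 to 10588 ± 360.3 (SD, n = 4 and 3; 1.70 ± 0.07 SE, adjusted p = 3.33e-08). Of the 4 electron donors, cytochrome b5 reductase Cyb5r3 fell in both (-1.16 and -1.36), and cytochrome b5 type b, Cyb5b, fell in WT mice (-0.89; -0.55 and not called with samples scaled to the same total).

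Of 11 regulators, 2 were called higher and 1 lower by limma in WT mice, and 3 higher and 1 lower by edgeR, by DESeq2 and without SSD-fed replicate 1. Ppara rose from 393 ± 119 to 627 ± 66.3 normalized counts (SD; log2 fold change 0.71, limma, adjusted p = 0.00665), Pparg rose by 1.22 and Ppard fell by 0.93. Ppard was not called without NCD-fed replicate 2 (-0.86, adjusted p = 0.0567) or replicate 3 (-0.68, adjusted p = 0.0599), nor with samples scaled to the same total (-0.59, adjusted p = 0.0931). Nr1i3, a xenobiotic receptor, had 3965 to 4772 normalized counts on NCD and 2977, 8748, 8926, 8759 and 7035 on SSD, where replicate 1 lay below all NCD-fed mice and the other 4 above them. It stood at 0.66 (limma, adjusted p = 0.0795) and was called without replicate 1 (0.95, adjusted p = 2.02e-05) and by edgeR and DESeq2 (0.76 each). Ppara in Klrk1-/- mice stood at 0.52 (adjusted p = 0.0156), under the 1.5-fold limit, Pparg rose by 0.74, Nr1i3 by 0.88, and Ppard fell by 1.5. Rxra, the partner of Ppara, stood at -0.10 in WT and 0.37 in Klrk1-/- mice and was not called. With samples scaled to the same total its WT value was 0.24, and in Klrk1-/- mice both Rxra (0.63) and Ppara (0.78) were called.

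Downstream of omega-hydroxylation, 1 of 9 dehydrogenases tested was called higher in WT mice, the fatty aldehyde dehydrogenase Aldh3a2, at 1.78 ± 0.14 (SE; limma, adjusted p = 4.13e-06), and 2 were called lower, Adh5 (-0.75) and Adh4 (-0.59). Adh4 was not called by edgeR or DESeq2 (-0.54 each) nor without SSD-fed replicate 1 (-0.39). In Klrk1-/- mice Aldh3a2 rose by 1.70 and Adh7 fell by 0.79. Of 19 genes of peroxisomal oxidation of dicarboxylic acids, 10 were called higher and 0 lower in WT mice (median 0.81 on the log2 scale), and 9 higher and 0 lower in Klrk1-/- mice (median 0.64). The largest were the acyl-CoA thioesterases Acot3 (3.57) and Acot4 (1.58), the transporter Abcd2 (1.86) and carnitine acetyltransferase Crat (1.48) in WT mice.

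Of 24 PPAR-alpha targets outside omega-oxidation, 16 were called higher and 1 lower in WT mice (median 0.73) and 17 higher and 0 lower in Klrk1-/- mice (median 0.80). In WT mice they were led by the hormone Fgf21 (7.38), the lipid droplet protein Cidec (5.49), Acot2 (3.49) and the pantetheinase Vnn1 (2.89), and Cyp8b1, of bile acid synthesis, fell by 0.91. The call of Cyp8b1 was lost without NCD-fed replicate 1, 2 or 3 (-0.93, -0.74 and -0.91, adjusted p = 0.0690, 0.0974 and 0.0691) and with samples scaled to the same total (-0.57, adjusted p = 0.107). Of 7 genes of fatty acid binding and uptake, 3 were called higher and 1 lower in WT mice, with Cd36 at 2.48, Fabp2 at 1.56, Fabp4 at 1.07 and Slc27a5 at -1.02.

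Cyp4a12a and Cyp4a12b fell beside other genes that male livers express more. Of 19 such genes, which leave out the members, 0 were called higher and 16 lower in WT mice (median -2.28), and 15 lower in Klrk1-/- mice (median -1.5). The largest falls in WT mice were those of the major urinary proteins Mup7 (-5.65) and Mup1 (-4.22), which belong to a family of near-identical copies, Selenbp2 (-4.10) and Ugt2b38 (-3.22). Of 7 genes tested that female livers express more, 3 were called higher in WT mice, Cyp2a4 (6.22), Acot3 (3.57) and Cyp2b9, and 2 lower, Cyp2c40 (-3.84) and Cyp2c69 (-3.29). In Klrk1-/- mice 8 were tested, of which 4 were called higher and 2 lower. Acot3 is also in the peroxisomal list. Cyp2b9 was at 0 reads in all 4 NCD-fed WT mice and at 5.33 to 131 normalized counts on SSD, a mean at least 17.6-fold higher than that of 3 reads per NCD-fed library. Without SSD-fed WT replicate 1, 15 male-type genes were called lower in WT mice, 14 PPAR-alpha targets higher and 1 lower, and 9 peroxisomal genes higher. On NCD, where Cyp4a12a stood at -0.01 and Cyp4a12b at 0.53 between genotypes, 4 of the 19 male-type genes were called lower in Klrk1-/- mice, with Mup1 at -2.08, beside 2.87% of all genes called lower.

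Of 6 other Cyp4 genes that could be tested, 1 was called for the diet in each genotype, both at group means of 5.53 to 42.0 normalized counts. They were Cyp4f18, a form known from leukocytes, at 1.53 in WT mice (limma, adjusted p = 0.0218), and Cyp4f39 at 1.76 in Klrk1-/- mice (adjusted p = 0.00989). Between genotypes on NCD, Cyp4f17 was called higher in Klrk1-/- mice (0.7, limma, adjusted p = 0.00269), also in 18 of 19 alternative settings. Cyp4f18 was not called without NCD-fed WT replicate 1 (1.31, adjusted p = 0.0703) or replicate 2 (1.29, adjusted p = 0.0635), nor with the replicate number as a block (1.48, adjusted p = 0.0937).

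Markers of other liver cells moved with the diet as well. Of 14 Kupffer cell and macrophage markers, 9 were called higher in WT and 3 in Klrk1-/- mice on SSD, and their summed levels were 7323 to 8397 normalized counts in NCD-fed and 9672 to 26933 in SSD-fed WT mice, 6302 to 7669.9 and 7733 to 9183 in Klrk1-/- mice. Of 10 hepatocyte markers, 0 were called higher and 4 lower in each genotype (medians -0.54 in WT and -0.48 in Klrk1-/- mice on the log2 scale). Tat and Ass1 fell the most in WT mice (-2.05 and -1.92), while Alb, Apob and Ttr were not called. Of 10 stellate cell markers 3 and 2 were called higher, of 8 endothelial markers 4 and 0, and of 7 cholangiocyte markers tested 0 and 1, in WT and Klrk1-/- mice, and 0 were called lower. In WT mice edgeR and DESeq2 each called 6 stellate and 3 endothelial markers higher. Of 7 lymphocyte and neutrophil markers tested in WT mice, 0 were called by limma, 1 by edgeR and 1 by DESeq2. Without SSD-fed WT replicate 1, the summed macrophage markers were at 9672 to 18123 normalized counts, 7 of them were called higher, and 2 stellate and 4 endothelial markers were. Of the lymphocyte and neutrophil markers 1 was then called lower, S100a9 (-0.89, adjusted p = 0.0473). In WT mice the counts of the electron donors, fatty acid uptake genes, female-type genes, other Cyp4 genes, hepatocyte markers and cholangiocyte markers were the same without that mouse. The part of these shifts in the results on the members was not tested.

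The genes most like 4 of the members across all 16 mice were read from Pearson's r of log2(normalized count + 1) over 13068 genes, as a description with no test, and the diet groups shape all of these values. Cyp4a14 was followed most closely by Agpat3 (r = 0.971), Tbc1d20 (0.971), Abcg8 (0.968), Rad51b (0.967) and Vwa8 (0.966). Cyp4a12a was followed by Sqle (0.955), Ola1 (0.955), Cyb5r3 (0.953), Tpmt (0.952) and Tstd3 (0.949). Cyp4f14 was followed by Slc15a5 (0.964), Aox3 (0.962), Cps1 (0.960), Nudt7 (0.959) and Acly (0.954), of which Cps1 is among the hepatocyte markers and Nudt7 among the male-type genes. Among the genes closest to Cyp4v3 were Lmbrd2 (0.923), the overlapping Gm45753 (0.916), Msrb1 (0.895) and Dera (0.891).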

How the data were processed

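RNA of 16 livers was sequenced as single reads of 100 bases. The authors used FastQC for read quality, STAR for alignment to GRCm39 and FeatureCounts with GENCODE M26 genes for counting. The labels name an mRNA kit and the methods a total RNA kit. Whether counting used strand is not given in the sources used here. The signal values deposited by the authors are counts of each gene over a scaling factor of its sample, called normalized counts here. Columns of the authors' own comparisons hold fold changes and p-values and were not used. All value columns belong to these samples. Dividing by each sample's step gave whole reads for 100% of values within 0.01.

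The members and gene lists were chosen with earlier results of these data known. The main test was limma 3.58.1 (trend method, R 4.3.3) on log2(normalized count + 1), with genes at a mean of at least 10, only the groups compared in a model (all 16 mice for the interaction) and Benjamini-Hochberg adjustment over all genes. On this scale the change of low genes is understated. Called means an adjusted p under 0.05 and more than 1.5-fold, the limits of the study's methods. Exact two-sided permutation tests (scipy 1.17.1) served for single genes and ratios. Genes named are the 9 members, up to 4 called genes of each list in each direction with the largest change, Por, Ppara and Rxra, and the 5 genes other than Cyp4 genes most correlated with 4 members, of which 1 gene is not reported here. Alternatives were pseudocounts of 0.5 and 10, no minimum mean or 50, equal totals, edgeR 4.0.16 and DESeq2 1.42.0 on recovered reads, fold limits of 2 or none, all 4 groups in 1 model, the replicate number as a block, and each mouse left out. On recovered reads edgeR called 2558 genes and DESeq2 2651 for SSD against NCD in WT mice, beside 2522 by limma. Tested on simulated data, limma recovered 74% of genes changed 2-fold and 96% of those changed 4-fold for the diet in WT mice (13093 genes), 62% and 99% in Klrk1-/- mice (12910 genes), 62% and 97% between genotypes on SSD (13108 genes), 67% and 99% on NCD (12842 genes), and 20% and 93% for the interaction (13050 genes).

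Sequences and overlaps come from GENCODE M39 on GRCm39, as do exon lengths, limited to the transcripts and gene bounds of the deposited table. In that annotation 25505 of 25719 deposited genes were found by identifier. Exons of all M39 transcripts and levels without WT SSD replicate 1 were added after seeing the data. Coding sequences were compared with Biopython 1.88. Pairs of mice within a group were compared by chi-square, and none agreed within sampling noise.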

Additional observations from a re-analysis of the deposited data

Results flagged for a closer look

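Of 27 combinations of a member and a group of 4 or 5 mice, 2 held a mouse far from the others by Dixon's test, which chance gives in about 1 of 20 groups. Cyp4a31 had 53.1 normalized counts in NCD-fed WT replicate 1, against 73.0 to 76.1 in the other mice of that group. Cyp4a32 had 519 in NCD-fed Klrk1-/- replicate 3, against 245 to 273 in the others. Without this mouse neither Cyp4a14 nor Cyp4a32 was called between genotypes on NCD, as also without WT replicate 1, 3 or 5.

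Among 161 genes of the lists that could be tested, 4 (2.48%) had a diet difference that differed between the genotypes by limma's interaction test, beside 0.849% of all genes. Por, which passes electrons to the members, had an interaction of 0.74 on the log2 scale (adjusted p = 0.0156). Its normalized counts were 6656, 6098, 6924, 7847 and 7765 in SSD-fed WT mice and 10415, 10347 and 11002 in SSD-fed Klrk1-/- mice, without overlap, as for 17.9% of all genes. The call was lost without SSD-fed Klrk1-/- replicate 3 (0.72, adjusted p = 0.0523). Acot2 had an interaction of -1.62 (limma, adjusted p = 0.0240), which was lost without SSD-fed Klrk1-/- replicate 1 (-1.68, adjusted p = 0.0531), replicate 2 (-1.62, adjusted p = 0.0501) or replicate 3 (-1.57, adjusted p = 0.0768). Cidec had an interaction of -2.45 (limma, adjusted p = 0.0485), and it kept its call in 7 of 25 alternative settings, with adjusted p-values up to 0.127. Between genotypes on SSD, Cidec was called lower in Klrk1-/- mice (-2.12, limma, adjusted p = 0.00833), also in all 19 alternative settings. Cd68, a macrophage marker, had an interaction of -1.57 (limma, adjusted p = 0.0107) and kept its call in all 25 settings. Its normalized counts were 531 to 1145 in SSD-fed WT mice and 271 to 291 in SSD-fed Klrk1-/- mice.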

How the results depend on the processing

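Of 909 refits of the members, 860 kept their direction and their side of the threshold. Of 2271 refits of the named list genes 2096 did, and 169 lost their call, among them refits of Adh4 (called in 9 of 20 settings), Lrat (13), Cdh5 (14), Lyve1 and Cyp8b1 (15 each), Ppard (16) and Hand2 (17) in WT mice. For SSD against NCD in WT mice all 7 called members were called under each setting run. In Klrk1-/- mice 7 were called under each, except 5 with a fold limit of 2 and 6 to 7 with a mouse left out. Between genotypes on NCD, 1 member was called with a fold limit of 2, and 0 to 3 with a mouse left out. Counts of 0 between genotypes on SSD and for the interaction stayed 0 throughout. With a mouse left out, 15 to 18 of 28 ratios did not overlap. That count cannot fall below the 15 of all mice, because leaving out a mouse creates no overlap.

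Replicate numbers showed no clear pairing of the mice (correlations of deviations -0.13 to 0.25), though on only 3 or 4 pairs per comparison. The replicate block called more genes between genotypes by limma, 595 against 279 on SSD and 1129 against 744 on NCD, and the reason was not tested. With the replicate block, in which mice with no partner were left out, 1 member was called between genotypes on NCD, Cyp4a32, while Cyp4a14 was not (1.60, adjusted p = 0.0699 by limma), Cyp4a10 stood at -0.21 there, and counts of called members stayed at 7, 7 and 0 in the other comparisons of groups.

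Signs changed only in values that were not called. Scaled to the same total, Cyp4v3 stood at 0.05 for the diet in Klrk1-/- mice, Rxra at 0.24 in WT mice, and, between genotypes on SSD, Cyp4a10 at -0.0004, Cyp4f14 at -0.10 and Cyp4v3 at -0.06. With edgeR, Cyp4f14 stood at -0.0004 (Klrk1-/- against WT) on SSD and Cyp4a12a at 0.0027 on NCD. The interaction of Cyp4a10 was -0.13 with DESeq2, -0.12 with edgeR and -0.03 scaled to the same total. With mice left out, values between genotypes on SSD ranged from -0.04 to 0.30 for Cyp4a10, -0.09 to 0.46 for Cyp4a12b, -0.06 to 0.11 for Cyp4f14 and -0.04 to 0.12 for Cyp4v3. On NCD they ranged from -0.20 to 0.45 for Cyp4a10, -0.13 to 0.07 for Cyp4a12a and -0.19 to 0.0025 for Cyp4f14, and the interaction of Cyp4a10 from -0.34 to 0.31. Ratio differences on SSD ranged from -0.10 to 0.23 for Cyp4a10 to Cyp4f14 and -0.03 to 0.15 for Cyp4v3 to Cyp4f14, and on NCD from -0.08 to 0.57 for Cyp4a10, -0.04 to 0.23 for Cyp4a12a and -0.11 to 0.04 for Cyp4v3, each to Cyp4f14. The cause was not tested.

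Counts of all called genes differed by more than 1.5 times under some alternatives. DESeq2 called 669 genes against 279 between genotypes on SSD and 354 against 111 for the interaction. Scaled to the same total, 3905 were called against 2522 for the diet in WT mice and 2600 against 1696 in Klrk1-/- mice. With the block, 595 were called between genotypes on SSD and 1129 on NCD, beside 279 and 744. With each mouse left out, 45 to 447 were called between genotypes on SSD (45, 80 and 61 without Klrk1-/- replicates 1, 2 and 3, and 447 without WT replicate 1), 425 to 972 on NCD and 37 to 185 for the interaction. Of the genes called between genotypes on SSD 33.3% were higher, 23% with DESeq2 and 16% scaled to the same total, and for the interaction 34.2% were higher and 19.6% scaled to the same total. On simulated data with 3 SSD-fed Klrk1-/- mice, limma recovered 62% of 2-fold differences between genotypes on SSD, so differences of that size or smaller can be missed.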
